A study of Mus musculus with 16 samples.

Results

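Cultured B16F10-TDMa cells that carried a guide to Nlrc5 were compared with the same cells carrying a scramble guide, across 12138 of the 13284 genes listed for that culture. B16F10 is a mouse melanoma line, and B16F10-TDMa is a line derived from it. The genes were those whose normalised count averaged at least 10 over the 4 libraries, so 1146 listed genes were left out. At that limit, the predicted gene Gm37819 had a mean of 9.99 and was left out, while the mitochondrial gene mt-Nd4l had a mean of 10.0 and was kept.

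The cells of one group had been transduced with an sgRNA targeting Nlrc5 (sgNlrc5, 2 libraries), and those of the other with a scramble sgRNA (sgScramble, 2 libraries). Both groups were the TDMa line, maintained in DMEM with fetal bovine serum. The labels do not say what TDM and TDMa stand for, whether the transduced cells were a clone or a pool, or whether the 2 libraries of a guide came from separate cultures. The p-values therefore rest on the spread of these libraries alone, shared in part between genes of similar level. Activation of Nlrc5 by demethylation is the subject given in the title of the series. The other 12 of the 16 libraries of the series, from culture of the line TDM and from TDMa tumours, were not used.

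NLRC5 is a member of the NOD-like receptor family that acts in the nucleus on the promoters of MHC class I genes and of genes that prepare and load their peptides. The questions asked here were which cellular programmes outside class I differed between the guides, and in which direction. Interferon signalling, pigment synthesis, lipid and glucose metabolism, secretion, the matrix, signalling pathways and chromatin were each described by gene lists.

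Nlrc5 (ENSMUSG00000074151), the targeted gene, had 3146 and 3142 normalised counts with sgNlrc5, against 254 and 242 with sgScramble, given as replicate 1 and then replicate 2, as are all pairs of values here. The sgNlrc5 libraries lay far above the sgScramble libraries, with means of 3144 ± 2.71 and 248 ± 8.42 normalised counts (SD, n = 2 and 2). The log2 fold change was 3.66 ± 0.061 (SE), with limma adjusted p = 5.3e-18. For context, 6 of 10 kept class I genes rose and 2 fell, the largest change being that of the heavy chain H2-D1 (4.88). The libraries held between 12183889 and 14159573 recovered reads over the listed genes, of which 5.79% to 6.25% belonged to the 10 genes with most reads and 2.19% to 2.38% to mitochondrial genes.

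Of the 12138 genes, 4156 passed the limma test at an adjusted p under 0.05, which is 34.2%, with 2100 higher (17.3%) and 2056 lower (16.9%) with sgNlrc5. In what follows, rose and fell are used only of genes that passed it, and a fold change is sgNlrc5 over sgScramble on the log2(normalised count + 1) scale, so that the change of a low gene is understated. Most changes were small. The median called rise was 0.31 and the median called fall -0.39, and the median over all genes was -0.00060 with quartiles of -0.19 and 0.17. Changes over 2-fold leaned towards lower values, with 538 such genes (4.43%), 148 higher (1.22%) and 390 lower (3.21%), and over 4-fold there were 28 higher and 139 lower. The direction went with the level: among 2633 genes with a mean of 10 to 100 normalised counts 5.20% rose and 14.3% fell, against 32.0% and 21.1% among the 3258 genes over 1000. The precision did too, since the median SE of the log2 fold change was 0.34 in the first of these bins and 0.048 in the second. The groups did not overlap for 8049 genes, or 66.3% of those kept. Without the intensity trend, by which limma lets the expected variance follow the level of a gene, 1581 genes passed, and without sgScramble replicate 1 or 2 there were 2512 or 2642. With equal sums of normalised counts in place of the submitters' size factors, 1643 genes were higher and 2587 lower, a share of 38.8% higher against 50.5%, and the median over all genes was -0.047.

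**Figure D1:**
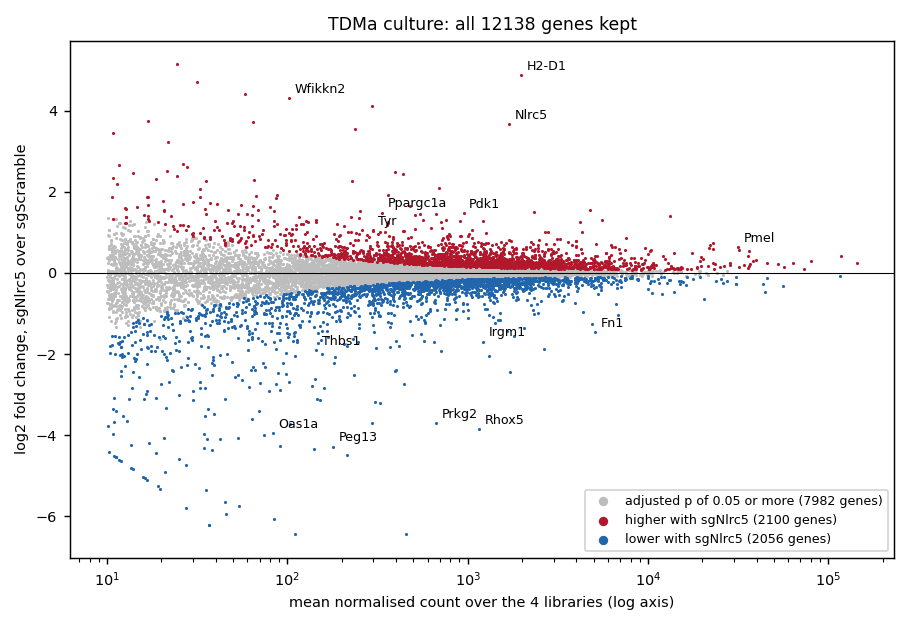
Each point is a gene of TDMa culture, by its mean normalised count over the 4 libraries (x axis, log) and its log2 fold change, sgNlrc5 over sgScramble (y axis). Red marks the 2100 genes called higher and blue the 2056 called lower, and below about 100 normalised counts the far points lie mostly under the zero line.

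**Figure D2:**
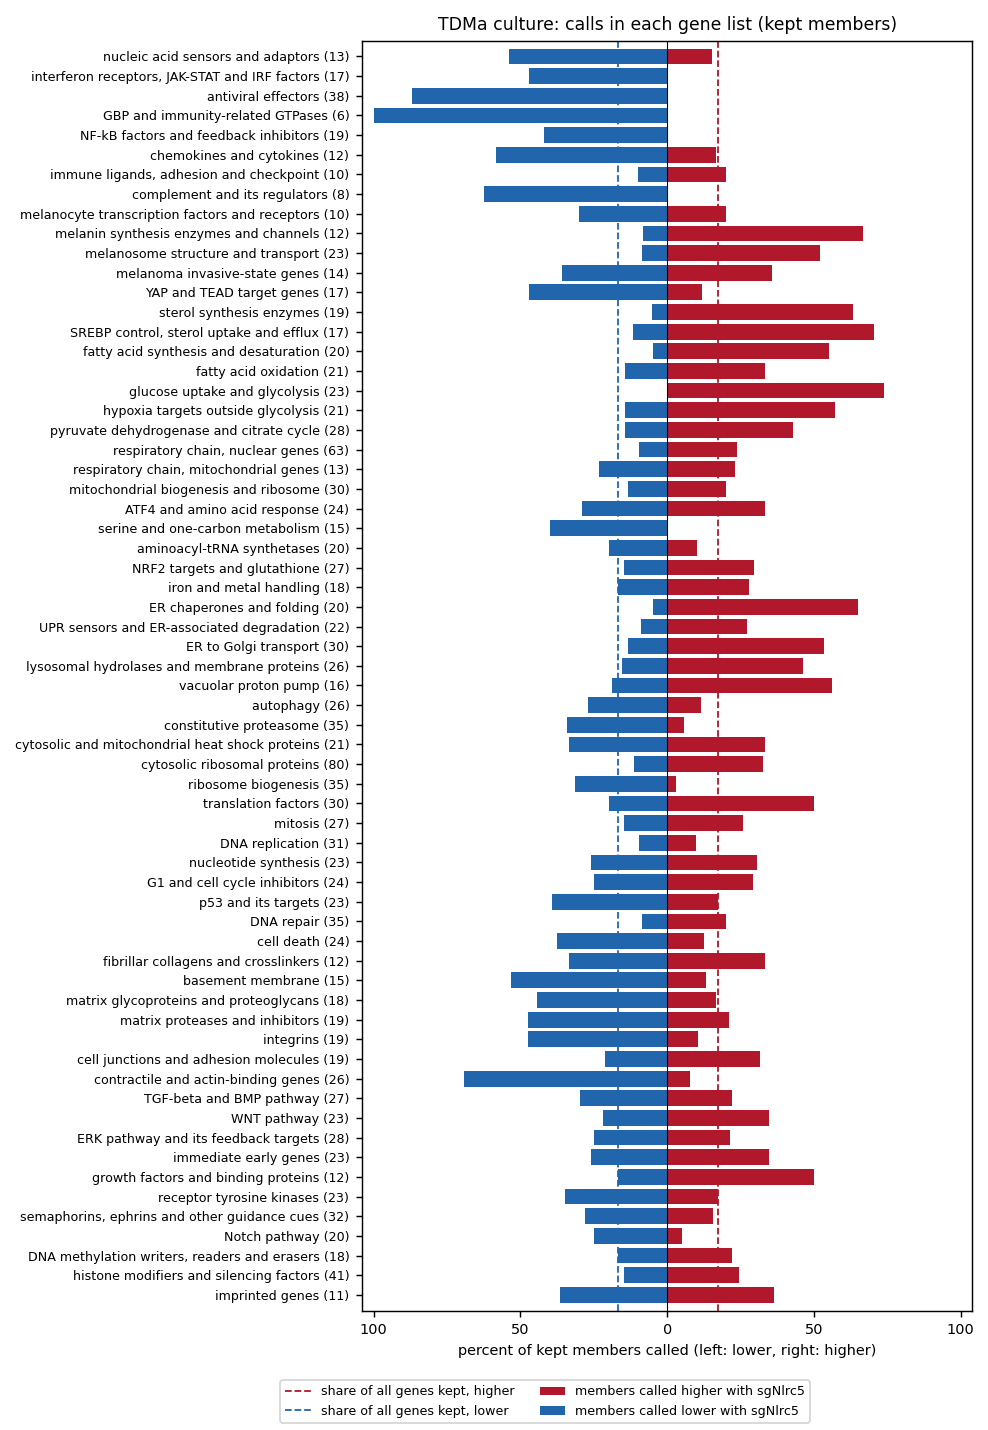
Bars give the percent of the kept members of each of 64 gene lists (number of kept members in brackets) called higher (red, right) or lower (blue, left) with sgNlrc5, and dashed lines the shares over all genes kept, 17.3% and 16.9%. Interferon lists extend to the left, while melanin, sterol, glycolysis and ER chaperone lists extend to the right.

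The 64 lists held 1738 different genes, of which 1446 were kept. Of these 388 rose and 362 fell, and 3406 called genes lay outside the lists. Lists are described by their counts and median and were not tested as sets. Each count is read beside the shares over all genes above, which do not allow for level. Among genes over 1000 normalised counts 32.0% rose and 21.1% fell, against 5.20% and 14.3% at 10 to 100. A list of high genes can thus lie above the overall shares without differing from other genes of its level.

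Most antiviral effector genes of the interferon programme fell with sgNlrc5, and so did some of its sensors and factors. Interferons act through cell surface receptors and JAK kinases on STAT factors and IRF9, which bind promoters of interferon-stimulated genes. Their products block viral replication and also include the sensors and IRF factors that feed the pathway. Of 38 kept antiviral effectors 33 fell and 0 rose (median -1.22), and of 6 guanylate-binding and immunity-related GTPases 6 fell (median -2.68). Of 13 nucleic acid sensors and adaptors 7 fell and 2 rose, and of 17 receptor, JAK-STAT and IRF genes 8 fell and 0 rose. These are bulk cultures, so fewer cells with a programme and less RNA per cell cannot be told apart, here or below.

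Among sensors, Ddx58, encoding the RNA helicase RIG-I, had 318 and 274 normalised counts with sgNlrc5, against 1257 and 1004 with sgScramble. Its relative Dhx58 (LGP2) had 13.5 and 15.5 with sgNlrc5, against 110.0 and 83.7 with sgScramble, and Ifih1 (MDA5) had 89.9 and 82.3 with sgNlrc5, against 181 and 182 with sgScramble. All 3 fell, with log2 fold changes of -1.92 ± 0.098, -2.65 ± 0.29 and -1.07 ± 0.16, and no sgNlrc5 library reached an sgScramble library. Sting1, the adaptor of cytosolic DNA sensing, changed less, with 616 and 656 with sgNlrc5, against 750.0 and 859.9 with sgScramble (-0.34 ± 0.075, limma adjusted p = 0.0017). The endosomal RNA receptor Tlr3, the kinase PKR (Eif2ak2) and the RNA editing enzyme Adar fell, with log2 fold changes of -0.99, -0.50 and -0.48, whereas Mavs, the adaptor below RIG-I, rose (0.26). These last 4 genes were named after their values were seen. Calls ended with no intensity trend for Sting1, Eif2ak2 and Mavs, without sgNlrc5 replicate 1 and without sgScramble replicate 1 for Mavs, and without sgScramble replicate 2 for Sting1.

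Of 4 interferon receptor genes 1 passed the test, Ifngr2. Ifnar1, a chain of the type I interferon receptor, had 1358 and 1382 normalised counts with sgNlrc5, against 1257 and 1281 with sgScramble (0.11 ± 0.051, limma adjusted p = 0.11), and Ifngr1 of the interferon gamma receptor had 376 and 363 with sgNlrc5, against 319 and 316 with sgScramble (0.22 ± 0.096, limma adjusted p = 0.089). For both, the sgNlrc5 libraries lay above the sgScramble libraries. Ifngr2, the partner chain of Ifngr1, had 651 and 698 with sgNlrc5, against 759 and 771 with sgScramble and fell (-0.18 ± 0.068, limma adjusted p = 0.045), while Ifnar2 overlapped between the groups (0.10 ± 0.086), both named after their values were seen. Below them, Irf9 had 128 and 96.9 with sgNlrc5, against 391 and 307 with sgScramble (-1.63 ± 0.16). Stat2 overlapped between the groups, with 232 and 189 with sgNlrc5, against 289.9 and 229 with sgScramble (-0.30 ± 0.14, limma adjusted p = 0.11). The amplifying factor Irf7 had 55.1 and 24.2 with sgNlrc5, against 208 and 105 with sgScramble (-1.98 ± 0.33), with its libraries spread widely within each guide. Irf1, which can act without STAT2, fell by less (-0.74 ± 0.11), and Usp18, a feedback inhibitor at the receptor, by more, with 22.5 and 31.0 with sgNlrc5, against 212 and 145 with sgScramble (-2.68 ± 0.24, limma adjusted p = 8.3e-08). Of these calls, those lost ended with no intensity trend and without sgScramble replicate 1 for Ifngr2 and Irf7, and without sgNlrc5 replicate 1 and without sgScramble replicate 2 for Ifngr2.

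Isg15, a ubiquitin-like protein attached to other proteins after interferon, had 59.6 and 80.4 normalised counts with sgNlrc5, against 355 and 242 with sgScramble (-2.06 ± 0.19, limma adjusted p = 9.9e-08). Ifit1, which binds viral RNA caps, had 112 and 114 with sgNlrc5, against 249.7 and 269 with sgScramble (-1.19 ± 0.14), and Rsad2 (viperin) 386 and 426 with sgNlrc5, against 608 and 585 with sgScramble (-0.56 ± 0.083). In each the groups were apart, and the range of change was wide. Oas1a, an oligoadenylate synthetase that activates RNase L, stood at -3.95 and Oasl2 at -2.27. Trim30a, of the tripartite motif family, stood at -4.06. Sp100, of the nuclear PML bodies, rested on 2 reads over both sgNlrc5 libraries, against 113 over both sgScramble libraries, a ratio of 0.019 (95% counting interval 0.0023 to 0.071). The Mx GTPases Mx1 and Mx2 (-0.64 and -1.06), the entry restriction factor Ifitm3 (-1.16) and Bst2 (tetherin, -0.91), named after their values were seen, fell by less. In 26 of the 38 effectors sgScramble replicate 1 lay above replicate 2. The calls that did not hold ended with no intensity trend, with quantile normalisation and without sgNlrc5 replicate 2 for Mx1, and without sgScramble replicate 1 and without sgScramble replicate 2 for Mx1 and Mx2.

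Members of the Ifit, Oas, Trim30, Gbp and immunity-related GTPase families have near-identical copies, and reads could have been split among them, so their separate values are uncertain. Irgm1, which targets pathogen vacuoles, had 588 and 558 normalised counts with sgNlrc5, against 1862 and 1846 with sgScramble (-1.69 ± 0.057, limma adjusted p = 8.5e-14). Igtp had 19.1 and 24.2 with sgNlrc5, against 173 and 128 with sgScramble (-2.74 ± 0.25), Gbp2 25.9 and 24.2 with sgNlrc5, against 137 and 107 with sgScramble (-2.23 ± 0.24) and Gbp3 11.2 and 10.7 with sgNlrc5, against 158 and 98.9 with sgScramble (-3.40 ± 0.30). The sgNlrc5 libraries lay below the sgScramble libraries in all 4. Tgtp2 rested on 2 reads with sgNlrc5, against 52 with sgScramble, a ratio of 0.042 (95% counting interval 0.0050 to 0.16).

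The interferon-stimulated response element, bound by STAT factors with IRF9, was looked for as the letters GAAA, any 2 bases and GAAA again, on either strand of RefSeq promoters (250 bases before to 50 after a gene start, GRCm38.p6). Of 38 kept antiviral effectors 27 had a promoter in the table and 13 held the letters (48.1%), against 3.49% of 9235 kept genes with a promoter. Of those 13, 12 fell, while over all 27 with a promoter 23 fell. The promoters of Isg15 (chr4:156200769-156201068, minus strand) and Ifit1 (chr19:34640639-34640938, plus strand) are shown to give the letters in place, in capitals, where overlapping matches run together.
Isg15: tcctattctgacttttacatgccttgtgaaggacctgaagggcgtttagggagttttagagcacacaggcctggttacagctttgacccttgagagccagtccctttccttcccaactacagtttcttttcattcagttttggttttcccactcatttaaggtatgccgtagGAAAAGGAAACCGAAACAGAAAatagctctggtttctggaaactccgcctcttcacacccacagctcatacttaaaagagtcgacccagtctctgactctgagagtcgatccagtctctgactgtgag
Ifit1: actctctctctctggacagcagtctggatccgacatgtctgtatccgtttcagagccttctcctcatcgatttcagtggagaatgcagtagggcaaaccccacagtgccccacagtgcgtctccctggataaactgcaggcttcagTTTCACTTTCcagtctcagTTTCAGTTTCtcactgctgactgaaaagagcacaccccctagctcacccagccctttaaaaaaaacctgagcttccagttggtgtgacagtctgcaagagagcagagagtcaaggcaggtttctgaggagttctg

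**Figure D3:**
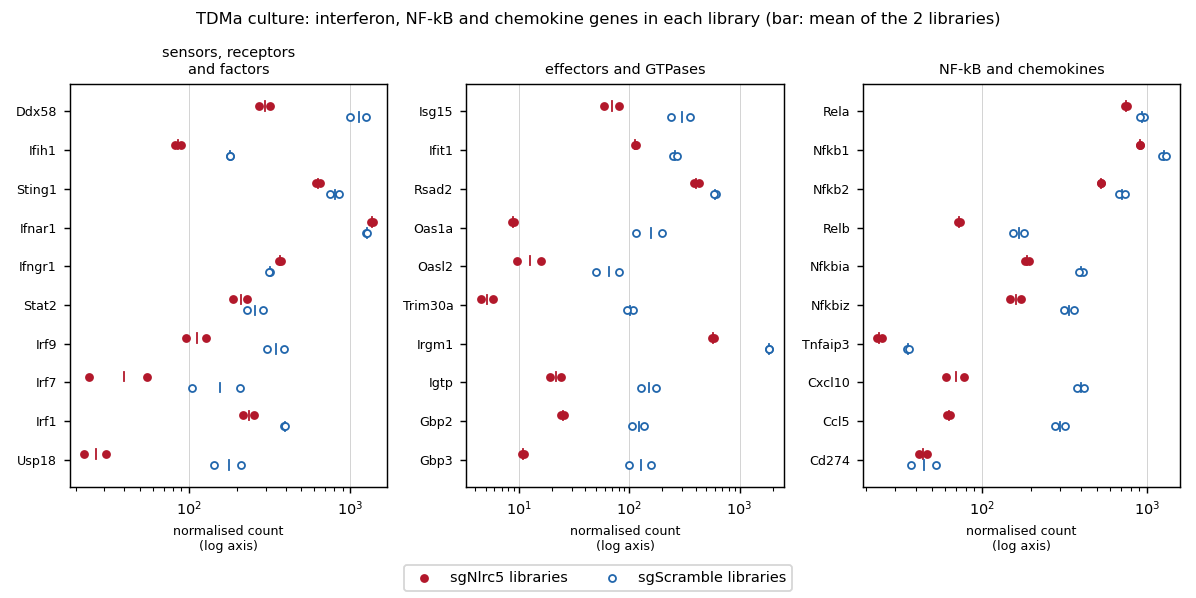
Normalised counts (x axis, log) of interferon, NF-kB and chemokine genes in each library of TDMa culture, with filled red points for sgNlrc5, open blue points for sgScramble and a bar at each mean of 2 libraries. Red points lie left of blue for the effectors, GTPases and chemokines, while Ifnar1, Ifngr1, Stat2 and Cd274 do not show that order.

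NF-kB genes and chemokines followed with smaller and larger changes. NF-kB dimers of Rel proteins are held inactive by IkB proteins, and the IkB and A20 genes are themselves targets that close the loop. Of 19 kept NF-kB factors and inhibitors 8 fell and 0 rose (median -0.15). Nfkbia, encoding IkB alpha, had 194 and 184 normalised counts with sgNlrc5, against 414 and 389 with sgScramble (-1.08 ± 0.11, limma adjusted p = 3.4e-07), Relb had 72.0 and 73.6 with sgNlrc5, against 181 and 155 with sgScramble (-1.19 ± 0.17), and Nfkbiz, a nuclear IkB protein, had 149.5 and 172 with sgNlrc5, against 317 and 362 with sgScramble (-1.07 ± 0.13). The subunit genes Nfkb1, Nfkb2 and Rela changed less (-0.48, -0.42 and -0.33), with the groups apart in each. Tnfaip3 (A20) had 24.7 and 23.3 with sgNlrc5, against 35.4 and 36.1 with sgScramble and did not pass (-0.56 ± 0.31, limma adjusted p = 0.18). The call for Rela ended with no intensity trend.

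Of 12 kept chemokine and cytokine genes 7 fell and 2 rose (median -0.83). Cxcl10, which attracts T cells, had 60.7 and 78.5 normalised counts with sgNlrc5, against 379.8 and 419.5 with sgScramble (-2.51 ± 0.15), Ccl5 had 64.1 and 62.0 with sgNlrc5, against 320.5 and 279.7 with sgScramble (-2.23 ± 0.16), and Cxcl1, a neutrophil chemokine, had 4.50 and 0.97 with sgNlrc5, against 55.5 and 76.1 with sgScramble (-4.33 ± 0.50). The NF-kB element was looked for as GGGAA, any 3 bases and CC, on both strands, and 3 of 10 list promoters held it (30%), against 8.13% of all. All 3 (Cxcl1, Cxcl10 and Csf1, the last named after its value was seen) belonged to genes that fell, as did 5 of all 10. The Cxcl10 promoter (chr5:92348840-92349139, minus strand) is shown with the matching letters in capitals.
Cxcl10: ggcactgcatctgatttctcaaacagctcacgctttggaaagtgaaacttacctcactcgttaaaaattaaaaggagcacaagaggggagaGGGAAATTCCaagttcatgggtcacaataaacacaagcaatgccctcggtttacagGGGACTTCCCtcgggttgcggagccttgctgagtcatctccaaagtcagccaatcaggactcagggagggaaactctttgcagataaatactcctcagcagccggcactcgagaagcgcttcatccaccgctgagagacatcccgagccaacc

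The kept genes for surface ligands of immune cells moved little. Their list held 27 genes, of which 13 were listed for this culture, without Icam1 or Vcam1, and 10 were kept. Of 10 kept genes for immune ligands, adhesion and checkpoints 2 rose and 1 fell (median 0.03). Cd274, encoding the checkpoint ligand PD-L1, had 41.6 and 46.5 normalised counts with sgNlrc5, against 52.6 and 37.1 with sgScramble, with overlapping groups (-0.0068 ± 0.27, limma adjusted p = 0.99). Cd47, an inhibitory signal to phagocytes, stood at 0.09 ± 0.078 (limma adjusted p = 0.4). The checkpoint ligand relative Cd276 rose (0.41 ± 0.13), as did Nectin2 (0.23 ± 0.062). Among complement genes 5 of 8 fell and 0 rose (median -0.42). They included the first-component protease gene C1ra, with 124 and 91.1 with sgNlrc5, against 212 and 205 with sgScramble (-0.97 ± 0.16), and its relative C1rl (-0.74 ± 0.17). Some calls ended with no intensity trend for Cd276, Nectin2, C1ra and C1rl, without sgNlrc5 replicate 1 and without sgScramble replicate 1 for Cd276 and Nectin2, without sgNlrc5 replicate 2 for Cd276, and without sgScramble replicate 2 for Cd276 and C1rl.

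Most melanin synthesis genes passed as higher, while the lineage factors split. MITF is the transcription factor that drives pigment enzyme genes in melanocytes, and TYR, TYRP1 and DCT make melanin inside melanosomes, organelles shaped by PMEL fibres and carried along actin by RAB27A, melanophilin and myosin Va. Of 12 melanin synthesis genes 8 rose and 1 fell (median 0.43). Of 23 melanosome genes 12 rose and 2 fell (median 0.24). Of 10 transcription factor and receptor genes 2 rose and 3 fell (median 0.10).

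Mitf had 5739 and 5824 normalised counts with sgNlrc5, against 4419.9 and 4268 with sgScramble (0.41 ± 0.034, limma adjusted p = 2.2e-08). Sox10 and Pax3, which act above it, had 8171 and 8034 with sgNlrc5, against 7584 and 7769 with sgScramble and 1829 and 1841 with sgNlrc5, against 1636 and 1806 with sgScramble, and neither passed (0.08 ± 0.030 and 0.09 ± 0.051, limma adjusted p = 0.053 for Sox10 and limma adjusted p = 0.17 for Pax3). The hormone receptor gene Mc1r overlapped between the groups (0.11 ± 0.057, limma adjusted p = 0.17), and the neuregulin receptor gene Erbb3 fell, with 1052 and 1005 with sgNlrc5, against 1626 and 1616 with sgScramble (-0.66 ± 0.052).

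Tyr, the rate-limiting enzyme gene of melanin synthesis, had 427 and 378 normalised counts with sgNlrc5, against 190.4 and 197 with sgScramble (1.05 ± 0.11, limma adjusted p = 6.1e-07). Tyrp1 had 7656 and 7696 with sgNlrc5, against 4887 and 4609.7 with sgScramble (0.69 ± 0.034), and Dct, which acts between them in the pathway, had 134195 and 135040 with sgNlrc5, against 101169 and 99719 with sgScramble (0.42 ± 0.020). The sgNlrc5 libraries lay above the sgScramble libraries for each, and also for the melanosome transporter genes Slc45a2 (0.46) and Slc24a5 (0.44). Slc7a11, a cystine transporter used for the red pigment, was the member that fell, with 40.5 and 28.1 with sgNlrc5, against 71.8 and 70.4 with sgScramble (-1.05 ± 0.26). Pmel rose by 0.64 and Mlana by 0.49. The transport GTPase gene Rab27a had 1304 and 1369 with sgNlrc5, against 697 and 679 with sgScramble (0.96 ± 0.059), and its partners Mlph and Myo5a, named after their values were seen, rose by 0.59 and 0.59. Rab38 and Rab32, which bring enzymes to melanosomes, rose by 0.84 and 0.65. The call for Slc7a11 ended with no intensity trend, without sgScramble replicate 1 and without sgScramble replicate 2.

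MITF binds the M-box, looked for here as TCATGTG on both strands. Of 10 melanin gene promoters 6 held it (60%), against 2.66% of all 9235. Of those 6, 4 genes rose and 1, Slc7a11, fell, while over all 10 6 rose and 1 fell. The promoters of Tyr (chr7:87493463-87493762, minus strand) and Tyrp1 (chr4:80833963-80834262, plus strand) are shown because these genes rose more than Dct among the 3 enzyme genes, with the M-box in capitals.
Tyr: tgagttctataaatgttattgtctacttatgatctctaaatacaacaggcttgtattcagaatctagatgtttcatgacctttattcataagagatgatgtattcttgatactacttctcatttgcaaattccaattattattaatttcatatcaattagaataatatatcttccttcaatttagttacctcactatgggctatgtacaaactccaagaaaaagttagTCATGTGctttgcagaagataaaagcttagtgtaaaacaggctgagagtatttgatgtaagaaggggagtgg
Tyrp1: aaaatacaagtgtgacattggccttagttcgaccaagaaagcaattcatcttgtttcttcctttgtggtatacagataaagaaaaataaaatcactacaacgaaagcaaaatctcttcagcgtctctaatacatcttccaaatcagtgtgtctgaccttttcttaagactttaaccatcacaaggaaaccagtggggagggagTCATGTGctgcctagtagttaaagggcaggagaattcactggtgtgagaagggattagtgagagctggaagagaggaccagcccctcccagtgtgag

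Genes linked with an invasive, less pigmented melanoma state split. Of 14 kept members 5 rose and 5 fell, with values from -1.90 to 0.74 (median 0.08). The 5 rises were those of Aqp1 (0.74), Tead4 (0.52), Nuak1 (0.34), Tead1 (0.33) and Cd44 (0.11), given after their values were seen. Whether these calls held under the alternatives is not given here. The called members named next are falls. Axl, a receptor kinase of that state, had 639.7 and 620.0 normalised counts with sgNlrc5, against 1379.6 and 1356 with sgScramble (-1.12 ± 0.059, limma adjusted p = 4.9e-11), and Vim (vimentin), named after its values were seen, fell (-0.48). Sox9 had 68.6 and 87.2 with sgNlrc5, against 61.2 and 49.5 with sgScramble and did not pass (0.48 ± 0.23, limma adjusted p = 0.12). Of 17 YAP and TEAD targets 8 fell and 2 rose, with values from -4.08 to 0.53 (median -0.03), and those named here are falls. Ccn1 had 476 and 454 with sgNlrc5, against 1036 and 992 with sgScramble (-1.12 ± 0.069), and Ccn2, another matricellular target, 4.50 and 0 with sgNlrc5, against 45.0 and 33.3 with sgScramble (-4.08 ± 0.66), the last on few reads. The call for Ccn2 ended with no intensity trend.

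**Figure D4:**
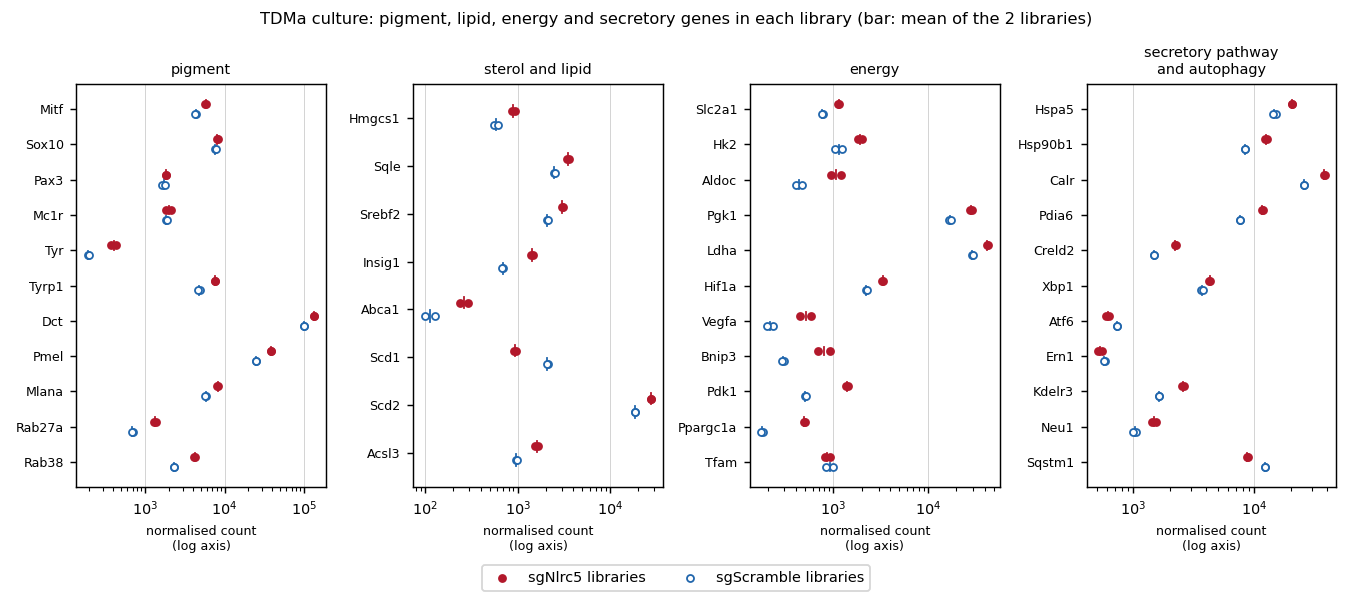
Normalised counts (x axis, log) of pigment, lipid, energy and secretory genes in each library of TDMa culture, with filled red points for sgNlrc5, open blue points for sgScramble and a bar at each mean of 2 libraries. Red points lie right of blue for most genes, while Scd1, Atf6, Ern1 and Sqstm1 show the other order and Mc1r and Tfam overlap.

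Most sterol synthesis genes passed as higher. SREBP2 (Srebf2) is held in the endoplasmic reticulum by SCAP and INSIG proteins when sterols are plentiful and, when released, drives genes of the mevalonate pathway, while ABCA1 exports cholesterol and is a target of the sterol-sensing receptor LXR. Of 19 kept sterol synthesis enzymes 12 rose and 1 fell (median 0.37), the fall being that of the isomerase gene Ebp (-0.16). Of 17 genes of SREBP control, uptake and efflux 12 rose and 2 fell (median 0.25), the falls being those of the ubiquitin ligase gene Mylip (-0.42) and the lipoprotein receptor gene Scarb1 (-0.14). Ebp, Mylip and Scarb1 were named after their values were seen. Hmgcs1, which makes the substrate of the mevalonate pathway, had 928 and 863 normalised counts with sgNlrc5, against 558 and 607 with sgScramble (0.62 ± 0.071, limma adjusted p = 1.6e-06), and Sqle, the squalene epoxidase gene, had 3593 and 3427 with sgNlrc5, against 2452 and 2537 with sgScramble (0.49 ± 0.041). Each of these was higher in both sgNlrc5 libraries than in either sgScramble library. Among the calls above, some ended with no intensity trend, without sgNlrc5 replicate 1, without sgNlrc5 replicate 2, without sgScramble replicate 1 and without sgScramble replicate 2 for Ebp and Scarb1.

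The genes for SREBP retention and sterol efflux described next rose as well. Insig1 had 1409.8 and 1456 normalised counts with sgNlrc5, against 700.3 and 677 with sgScramble (1.06 ± 0.058), and Abca1 had 239 and 289.7 with sgNlrc5, against 98.5 and 128 with sgScramble (1.22 ± 0.16). Srebf2 itself rose by 0.53 and Srebf1, which favours fatty acid genes, by 0.36, with the groups apart in both. The sterol regulatory element was looked for as ATCAC, any base and CCAC, on both strands. None of 15 enzyme promoters held those letters, and 0.17% of all did, which says only that the letters are not in these windows.

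In fatty acid synthesis 11 of 20 members rose and 1 fell (median 0.18), and the 2 stearoyl-CoA desaturase genes went opposite ways. Scd1 had 949 and 916 normalised counts with sgNlrc5, against 2118 and 2064 with sgScramble (-1.16 ± 0.050, limma adjusted p = 2.8e-12), and Scd2 had 27804 and 27376 with sgNlrc5, against 18337 and 18487 with sgScramble (0.58 ± 0.024, limma adjusted p = 1.8e-12). Acsl3, an acyl-CoA synthetase of lipid droplets, had 1672 and 1549 with sgNlrc5, against 956 and 976 with sgScramble (0.74 ± 0.055), the desaturase gene Fads2, named after its values were seen, rose by 0.49, and the synthase gene Fasn by 0.19. In fatty acid oxidation 7 of 21 rose and 3 fell (median 0.02), and Cpt1a, the mitochondrial entry enzyme gene, stood at 0.29 ± 0.084. Calls were lost with no intensity trend for Fasn and Cpt1a, and without sgNlrc5 replicate 2, without sgScramble replicate 1 and without sgScramble replicate 2 for Cpt1a.

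Glycolysis had the largest share of rises among the 64 lists. Of 23 kept genes for glucose uptake and glycolysis 17 rose and 0 fell (median 0.42). In 19 of the 23 sgNlrc5 replicate 1 lay above replicate 2, and in 4 sgScramble replicate 1 did. HIF-1 is a transcription factor that is degraded in the presence of oxygen through the EGLN hydroxylases, and it raises glucose uptake, glycolysis and lactate export, along with PDK1, which keeps pyruvate out of mitochondria. The transporter gene Slc2a1 had 1147 and 1129.6 normalised counts with sgNlrc5, against 775 and 753 with sgScramble (0.57 ± 0.059), and Hk2, the first enzyme, 2003 and 1826 with sgNlrc5, against 1033 and 1230 with sgScramble (0.76 ± 0.068). Aldoc had 1209 and 942 with sgNlrc5, against 403 and 467 with sgScramble (1.30 ± 0.097), the largest change of the list. Pgk1 and Ldha rose by 0.73 and 0.53, Pfkl by 0.79, and Aldoa and Gpi1, named after their values were seen, by 0.60 and 0.53. Gapdh rose by 0.30 but stood at 0.0 with quantile normalisation. Pkm rose by 0.33. Calls ended with no intensity trend for Gapdh and Pkm, and with quantile normalisation for Gapdh.

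Of 21 further hypoxia genes 12 rose and 3 fell (median 0.46). In 16 of the 21 sgNlrc5 replicate 1 lay above replicate 2, and in 11 sgScramble replicate 1 did. Pdk1 had 1422 and 1366 normalised counts with sgNlrc5, against 497 and 509 with sgScramble (1.47 ± 0.062, limma adjusted p = 2.1e-12), the mitophagy receptor gene Bnip3 had 909.5 and 689.8 with sgNlrc5, against 297 and 283 with sgScramble (1.45 ± 0.11), and Vegfa, the angiogenic growth factor gene, had 577 and 441 with sgNlrc5, against 229.6 and 198 with sgScramble (1.24 ± 0.12). The sgNlrc5 libraries of Bnip3 and Vegfa differed from each other by more than those of Pdk1, and all lay above sgScramble. Hif1a rose (0.57 ± 0.040), and Epas1, encoding the related HIF-2 alpha, fell (-0.48 ± 0.086). Of the hydroxylase genes, Egln1 rose (0.76) and Egln3 fell (-0.61), and the oxidase gene Ero1a rose by 1.00. Epas1, Egln1, Egln3 and Ero1a were named after their values were seen. The call for Egln3 ended with no intensity trend, without sgNlrc5 replicate 2 and without sgScramble replicate 2.

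The hypoxia response element was looked for as ACGTG on both strands. It stood in 14 of 22 glycolysis promoters (63.6%), against 30.3% of all. Of those 14, 11 genes rose, while over all list members with a promoter 17 of 22 rose. The Ldha promoter (chr7:46845554-46845853, plus strand) had 5 matches, counting both strands, and is shown with them in capitals.
Ldha: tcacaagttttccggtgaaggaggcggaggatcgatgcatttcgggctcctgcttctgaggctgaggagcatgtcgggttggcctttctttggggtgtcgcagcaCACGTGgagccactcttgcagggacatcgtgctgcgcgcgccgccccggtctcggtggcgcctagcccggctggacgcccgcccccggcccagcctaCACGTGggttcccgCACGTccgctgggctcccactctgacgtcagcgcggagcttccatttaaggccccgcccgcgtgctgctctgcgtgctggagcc

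Mitochondrial genes moved less. Of 28 pyruvate dehydrogenase and citrate cycle genes 12 rose and 4 fell (median 0.10), with Idh2, the mitochondrial NADPH-linked isocitrate dehydrogenase gene, rising most, with 7736 and 7709 normalised counts with sgNlrc5, against 4869.6 and 5005 with sgScramble (0.65 ± 0.032). Of 63 nuclear respiratory chain genes 15 rose and 6 fell (median 0.06), the highest value being 0.32 for Ndufb6 of complex I. Of 13 mitochondrially encoded genes 3 rose and 3 fell. The lowest values of these 3 lists, in that order, were -0.68, -0.74 and -0.63. Complex I genes mt-Nd1 and mt-Nd5 rose (0.14 and 0.24), and mt-Cytb of complex III fell (-0.33). Of these calls, those lost ended with no intensity trend for Ndufb6, mt-Nd1, mt-Nd5 and mt-Cytb, and without sgNlrc5 replicate 1 and without sgScramble replicate 1 for Ndufb6.

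Ppargc1a, encoding PGC-1 alpha, a coactivator of mitochondrial biogenesis and in melanoma a reported MITF target, had 503 and 482 normalised counts with sgNlrc5, against 179 and 172 with sgScramble (1.48 ± 0.10, limma adjusted p = 2.8e-09). Tfam, the mitochondrial DNA factor below it, had 816 and 912 with sgNlrc5, against 991 and 839 with sgScramble, with overlapping groups (-0.08 ± 0.077, limma adjusted p = 0.46). In its list 6 of 30 members rose and 4 fell, shares close to those over all genes.

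Amino acid genes were mixed. ATF4 is a factor translated during stress that raises amino acid transporters and synthetic enzymes. Of 24 ATF4 and amino acid response genes 8 rose and 7 fell. The transporter genes Slc1a5 and Slc7a5, named after their values were seen, rose by 0.64 and 0.44, and Atf4 by 0.12. The transporter genes Slc7a11 and Slc1a4 fell (-1.05 and -0.33), and the proline synthesis gene Aldh18a1 rose (0.18), Slc1a4 and Aldh18a1 being named after their values were seen. Cth, which makes cysteine, had 27.0 and 39.7 normalised counts with sgNlrc5, against 105 and 81.8 with sgScramble (-1.47 ± 0.26), Nupr1, a stress-induced chromatin protein, had 4.50 and 9.69 with sgNlrc5, against 20.1 and 19.98 with sgScramble (-1.46 ± 0.48), and Asns had 1248 and 1336 with sgNlrc5, against 1556 and 1483 with sgScramble (-0.23 ± 0.053). Ddit3 (CHOP) and Trib3 did not pass (0.31 ± 0.13 and 0.17 ± 0.14). In serine and one-carbon metabolism 0 of 15 rose and 6 fell (median -0.10). Aldh1l2, a mitochondrial folate enzyme, had 601 and 584 with sgNlrc5, against 1186 and 1062 with sgScramble (-0.92 ± 0.068), while Phgdh, the entry enzyme, did not pass (-0.07 ± 0.037, limma adjusted p = 0.18). Of 20 aminoacyl-tRNA synthetase genes 2 rose and 4 fell. The calls that did not hold ended with no intensity trend for Atf4, Slc7a11, Slc1a4, Aldh18a1, Nupr1 and Asns, with equal sums and without sgNlrc5 replicate 2 for Atf4, with quantile normalisation for Atf4 and Nupr1, without sgNlrc5 replicate 1 for Slc1a4, Aldh18a1 and Nupr1, without sgScramble replicate 1 for Slc7a11, Slc1a4, Aldh18a1, Nupr1 and Asns, and without sgScramble replicate 2 for Atf4, Slc7a11, Slc1a4, Aldh18a1 and Nupr1.

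The amino acid response element was looked for as TGATGNAA, with N any base, on both strands. It stood in 8 of 21 list promoters (38.1%), against 2.56% of all. Of those 8 genes 5 fell and 0 rose, while over all list members with a promoter 6 fell and 6 rose. The promoters of Nupr1 (chr7:126625421-126625720, minus strand) and Slc7a11 (chr3:50443564-50443863, minus strand) are shown as 2 of those that fell, with the matches in capitals.
Nupr1: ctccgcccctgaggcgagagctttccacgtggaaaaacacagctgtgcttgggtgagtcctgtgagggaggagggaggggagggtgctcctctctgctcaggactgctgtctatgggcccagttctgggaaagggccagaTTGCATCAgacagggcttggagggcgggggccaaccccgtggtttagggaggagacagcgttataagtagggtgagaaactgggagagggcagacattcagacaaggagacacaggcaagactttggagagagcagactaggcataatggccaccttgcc
Slc7a11: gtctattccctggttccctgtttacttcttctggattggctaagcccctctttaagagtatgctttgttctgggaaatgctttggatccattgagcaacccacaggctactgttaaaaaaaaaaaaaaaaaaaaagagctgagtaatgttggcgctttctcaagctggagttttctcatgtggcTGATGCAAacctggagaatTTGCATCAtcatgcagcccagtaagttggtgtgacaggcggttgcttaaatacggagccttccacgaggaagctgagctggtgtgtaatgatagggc

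Antioxidant genes were mixed. NRF2 (Nfe2l2) drives glutathione and NADPH enzymes under oxidative stress, and 8 of 27 members of its list rose and 4 fell. Nfe2l2, Gclc, Gclm and Txnrd1 did not pass (0.06, -0.05, 0.10 and 0.04). Gpx1, a selenium peroxidase, had 1522 and 1474 normalised counts with sgNlrc5, against 2229 and 2258 with sgScramble (-0.58 ± 0.045), and Sod2, the mitochondrial superoxide dismutase gene, had 1342 and 1382 with sgNlrc5, against 963 and 1004 with sgScramble (0.47 ± 0.055). The antioxidant response element, TGACNNNGC on either strand, stood in 9 of 23 promoters (39.1%), against 17% of all. In iron and metal handling 5 of 18 rose and 3 fell, with the transferrin receptor gene Tfrc at 0.50 ± 0.032 and the zinc importer Slc39a10 at 0.85 ± 0.061.

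Most folding genes of the endoplasmic reticulum passed as higher, while none of 3 stress sensors described here passed as higher. Proteins bound for the surface fold there with BiP (Hspa5), GRP94 (Hsp90b1), calreticulin and protein disulfide isomerases, and IRE1 (Ern1), PERK (Eif2ak3) and ATF6 sense unfolded protein. Of 20 chaperone and folding genes 13 rose and 1 fell (median 0.41). Hspa5 had 20559 and 20482 normalised counts with sgNlrc5, against 14992 and 14276 with sgScramble (0.49 ± 0.028, limma adjusted p = 1.4e-10), Calr had 37472 and 38401 with sgNlrc5, against 25867 and 25698 with sgScramble (0.56 ± 0.024), and Pdia6 had 11721 and 11463 with sgNlrc5, against 7646 and 7544 with sgScramble (0.61 ± 0.029). Hsp90b1 rose by 0.57, Creld2 by 0.60, Dnajc3 by 0.59, and Hyou1, named after its values were seen, by 0.58. Of the sensors, Ern1 and Eif2ak3 did not pass (-0.11 ± 0.077 and 0.12 ± 0.073) and Atf6 fell (-0.25 ± 0.069), while Xbp1, spliced by IRE1, rose by 0.22. Of 22 sensors and degradation genes 6 rose and 2 fell, against 4 and 5 with equal sums. Some calls ended with no intensity trend for Atf6 and Xbp1, and without sgNlrc5 replicate 1, without sgScramble replicate 1 and without sgScramble replicate 2 for Atf6.

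Traffic genes rose in 16 of 30 and fell in 4 (median 0.14), led by the retrieval receptor gene Kdelr3, with 2622 and 2512 normalised counts with sgNlrc5, against 1641 and 1638 with sgScramble (0.65 ± 0.044). Lysosomal genes rose in 12 of 26 and fell in 4, and proton pump genes rose in 9 of 16 and fell in 3 (median 0.16). The sialidase gene Neu1 had 1541 and 1420.3 with sgNlrc5, against 1061 and 1001 with sgScramble (0.52 ± 0.057) and the progranulin gene Grn 4414 and 4483 with sgNlrc5, against 5571 and 5425 with sgScramble (-0.31 ± 0.034), in opposite directions. Autophagy genes rose in 3 of 26 and fell in 7. The cargo receptor gene Sqstm1 (p62) had 8833 and 8703 with sgNlrc5, against 12273 and 12318 with sgScramble (-0.49 ± 0.028, limma adjusted p = 1.5e-10), and another cargo receptor, Optn, rose (0.45 ± 0.096).

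Protein turnover and synthesis genes differed by machine. Of 35 genes on the constitutive proteasome list 12 fell and 2 rose (median -0.04). That list also holds activator genes, among them 2 that interferon induces, which are not constitutive subunits. The interferon-inducible activator genes Psme2 and Psme1 fell most, with 404 and 435 normalised counts with sgNlrc5, against 698 and 706 with sgScramble for Psme2 (-0.74 ± 0.078) and -0.43 for Psme1. The immunoproteasome subunit Psmb10 and the peptide loading gene Tapbp, named after their values were seen, fell as well (-0.57 and -0.91), while Psmb9 of the same particle rose by 3.56. Heat shock genes rose in 7 of 21 and fell in 7 (2 and 8 with equal sums), and their factor Hsf1 overlapped between groups (0.002 ± 0.061). The call for Psmb10 ended with no intensity trend and without sgScramble replicate 1.

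Of 80 cytosolic ribosomal protein genes 26 rose and 9 fell (median 0.04). Those shares, 32.5% and 11.25%, stand beside 32.0% and 21.1% among all genes over 1000 normalised counts. With equal sums, however, 14 rose and 18 fell (median -0.0092), and with quantile normalisation 12 rose and 20 fell (median -0.013). In ribosome biogenesis 1 of 35 rose and 11 fell. Polr1a, the large subunit gene of RNA polymerase I, had 1761 and 1893 normalised counts with sgNlrc5, against 2521 and 2621 with sgScramble (-0.49 ± 0.046), and Npm1, a nucleolar chaperone, had 27313 and 28118 with sgNlrc5, against 33893 and 33035 with sgScramble (-0.27 ± 0.025). Ncl (nucleolin) rose by 0.12 and was lower with quantile normalisation (-0.076). Translation factor genes rose in 15 of 30 and fell in 6, among them the elongation factor genes Eef1a1 (0.24) and Eef2 (0.23), which rose, and the initiation helicase Eif4a1 (-0.19), which fell. Among the calls above, some ended with no intensity trend for Npm1, Ncl, Eef1a1, Eef2 and Eif4a1, with quantile normalisation for Ncl and Eef1a1, and without sgScramble replicate 1 for Ncl.

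Changes among proliferation genes were small. Of 27 mitosis genes 7 rose and 4 fell, and of 31 replication genes 3 rose and 3 fell, the second below the 34.2% called over all genes. Mki67 had 9286 and 9488 normalised counts with sgNlrc5, against 8274 and 8501 with sgScramble (0.16 ± 0.030), Pcna overlapped between the groups (0.07 ± 0.039), and Cdk1 did not pass (0.08 ± 0.043). In G1 control 7 of 24 rose and 6 fell. Cyclin D1 (Ccnd1) had 3018 and 2940.3 with sgNlrc5, against 4159 and 4362 with sgScramble (-0.52 ± 0.038, limma adjusted p = 5.6e-09), and Cdk2 had 4912 and 5169 with sgNlrc5, against 2984 and 2866 with sgScramble (0.78 ± 0.038, limma adjusted p = 1.6e-11). Cdk2 lies beside Pmel in the genome, and whether counting used strand is not given in the sources used here, so reads of the pair may not be told apart. Myc rose by 0.30. In nucleotide synthesis 7 of 23 rose and 6 fell. The call for Mki67 ended with no intensity trend.

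Trp53, encoding p53, had 1945 and 1950.2 normalised counts with sgNlrc5, against 3079 and 3169 with sgScramble (-0.68 ± 0.041, limma adjusted p = 2.9e-10). Of 23 genes of p53 and its targets 9 fell and 4 rose. Mdm2, its ubiquitin ligase and target, the stress kinase gene Plk2 and the antiproliferative gene Btg2 fell (-0.26, -0.77 and -0.59), as did Cdkn1a, encoding p21 (-0.12), while the death effector gene Bax rose (0.17). DNA repair genes rose in 7 of 35 and fell in 3, and Rad51c, a recombination gene, fell (-0.48 ± 0.10). Cell death genes rose in 3 of 24 and fell in 9. Casp4, the sensor caspase for cytosolic lipopolysaccharide, had 0 and 0 with sgNlrc5, against 21.05 and 19.98 with sgScramble, which is at least 13.1-fold lower when 0 reads are bounded by 3 over the group. Its neighbour gene Casp12 had 2.25 and 5.81 with sgNlrc5, against 91.8 and 68.5 with sgScramble (-4.09 ± 0.42). Bcl2 rose (0.37 ± 0.065) and Bcl2l1 fell (-0.34 ± 0.062), and Mcl1 overlapped between the groups (-0.03 ± 0.042). Calls were lost with no intensity trend for Mdm2, Cdkn1a, Bax, Rad51c and Bcl2l1, with equal sums and with quantile normalisation for Bax, without sgNlrc5 replicate 2 and without sgScramble replicate 1 for Cdkn1a and Bax, and without sgScramble replicate 2 for Cdkn1a, Bax and Rad51c.

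Of 7 matrix, adhesion and actin lists 5 held more falls than rises, the collagens held as many of each, and the junction genes held more rises. Tumour cells make part of their own matrix, bind it through integrins and pull on it with actin fibres. Contractile and actin-binding genes fell in 18 of 26 and rose in 2 (median -0.19). Basement membrane genes fell in 8 of 15 and rose in 2 (median -0.19), matrix glycoproteins and proteoglycans fell in 8 of 18 and rose in 3, and matrix proteases and inhibitors fell in 9 of 19 and rose in 4. Integrin genes fell in 9 of 19 and rose in 2, whereas fibrillar collagens and crosslinkers split, 4 higher and 4 lower of 12. At a mean normalised count of at least 50, 13 integrin genes were left, with 3 higher and 5 lower (median 0.021).

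Fn1, encoding fibronectin, had 2770.2 and 2666 normalised counts with sgNlrc5, against 7347 and 7665 with sgScramble (-1.47 ± 0.036, limma adjusted p = 1.6e-15). Thbs1 (thrombospondin) had 57.3 and 63.9 with sgNlrc5, against 222 and 235 with sgScramble (-1.90 ± 0.17), and Ecm1 had 56.2 and 52.3 with sgNlrc5, against 159.8 and 185 with sgScramble (-1.64 ± 0.19). The sgNlrc5 libraries lay under the sgScramble libraries in these. The melanoma proteoglycan gene Cspg4, named after its values were seen, fell (-1.05). Among collagens, Col5a1 had 1033 and 978 with sgNlrc5, against 2034 and 1967 with sgScramble (-0.99 ± 0.051), and Col1a1 50.6 and 42.6 with sgNlrc5, against 110.0 and 125 with sgScramble (-1.32 ± 0.21), while Col1a2, the partner chain, had 216 and 271 with sgNlrc5, against 185 and 156 with sgScramble (0.51 ± 0.14). The collagen lysyl hydroxylase Plod2, also a hypoxia target and named after its values were seen, rose by 0.78. In basement membranes, Col4a1 and the perlecan gene Hspg2 fell (-0.37 and -0.41) and the laminin chain gene Lama5 rose (0.61 ± 0.068). Calls ended with no intensity trend and without sgScramble replicate 2 for Cspg4 and Col1a2, with quantile normalisation, without sgNlrc5 replicate 1 and without sgScramble replicate 1 for Cspg4, and without sgNlrc5 replicate 2 for Col1a2.

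The aggrecanase gene Adamts4 had 388 and 372 normalised counts with sgNlrc5, against 708 and 874 with sgScramble (-1.05 ± 0.091), and Adam10, a sheddase of many surface proteins, had 2644 and 2563 with sgNlrc5, against 3829.6 and 3777 with sgScramble (-0.55 ± 0.038). Mmp14, a membrane protease, rose (0.24 ± 0.038), and Mmp2, which it activates, fell (-0.51 ± 0.12). AP-1 is a factor of many protease genes, and its element, TGANTCA on either strand, stood in 2 of 11 promoters of the list (18.2%), against 5.9% of all. Of the integrins, Itgb3 had 134 and 118 with sgNlrc5, against 262 and 263 with sgScramble (-1.06 ± 0.14), and Itga6 and Itgb4, the 2 chains of a laminin receptor, named after their values were seen, fell (-1.03 and -0.98). Itga3, a chain of another laminin receptor, rose (0.80 ± 0.21), and Itgav and Itga5 did not pass (0.02 and 0.07). Of these calls, those lost ended with no intensity trend for Mmp14 and Itga3, without sgNlrc5 replicate 1 and without sgScramble replicate 1 for Itgb4 and Itga3, and without sgScramble replicate 2 for Itgb4.

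Junction genes rose in 6 of 19 and fell in 4. The gap junction gene Gjb2 (connexin 26) had 3665 and 3818 normalised counts with sgNlrc5, against 1837 and 1881 with sgScramble (1.01 ± 0.041, limma adjusted p = 1.2e-12), and Gja1 (connexin 43) fell, with 423 and 462 with sgNlrc5, against 569 and 584 with sgScramble (-0.38 ± 0.081). Jup (plakoglobin) had 7.87 and 0.97 with sgNlrc5, against 61.2 and 67.5 with sgScramble (-3.97 ± 0.54), and the related Ctnnb1 (beta-catenin) rose (0.24 ± 0.028). Mcam, a melanoma adhesion molecule, fell (-0.33 ± 0.035), and Cdh1 and Cdh2 did not pass (0.22 and 0.04). Of actin genes, the tropomyosin gene Tpm1 had 9952 and 9837 with sgNlrc5, against 13955 and 14311 with sgScramble (-0.51 ± 0.028), Des (desmin) had 359.8 and 315 with sgNlrc5, against 579 and 578 with sgScramble (-0.78 ± 0.090), and Actb, often used as a constant gene, fell (-0.26). The calls that did not hold ended with no intensity trend for Gja1, Jup, Ctnnb1 and Actb.

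**Figure D5:**
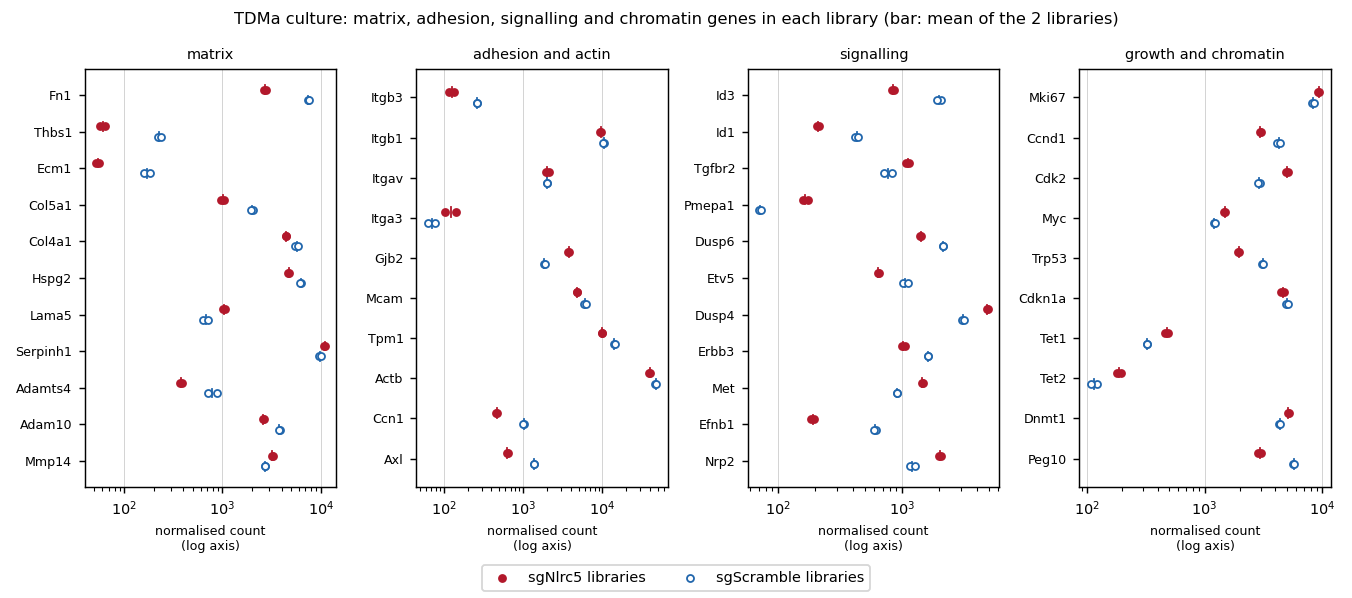
Normalised counts (x axis, log) of matrix, adhesion, signalling, growth and chromatin genes in each library of TDMa culture, with filled red points for sgNlrc5, open blue points for sgScramble and a bar at each mean of 2 libraries. Red lies left of blue for Fn1, Thbs1, Axl, Id1, Id3 and Dusp6, and right of it for Gjb2, Pmepa1, Dusp4, Nrp2, Cdk2 and Tet2.

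In TGF-beta and BMP signalling 6 of 27 kept genes rose and 8 fell. TGF-beta receptors signal through SMAD2 and SMAD3 and BMP receptors through SMAD1 and SMAD5, whose direct targets include the ID genes. Id3 had 859 and 840.0 normalised counts with sgNlrc5, against 2076 and 1924 with sgScramble (-1.23 ± 0.054, limma adjusted p = 3.3e-12), Id1 had 216 and 207 with sgNlrc5, against 422 and 444 with sgScramble (-1.03 ± 0.10), and the BMP-induced inhibitor gene Smad6 fell (-0.60 ± 0.13). The TGF-beta receptor gene Tgfbr2 rose (0.53 ± 0.069), its feedback target Pmepa1 had 174 and 159 with sgNlrc5, against 70.8 and 73.2 with sgScramble (1.20 ± 0.17), and Smad7 did not pass (0.30 ± 0.17). Wfikkn2, which binds growth and differentiation factors of this family, had 194 and 195 with sgNlrc5, against 13.4 and 5.71 with sgScramble (4.32 ± 0.32), among the largest rises of the culture. Smad6 and Pmepa1 were named after their values were seen. The call for Tgfbr2 ended with no intensity trend.

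ERK signalling, active in melanoma through RAS and RAF, is read from feedback genes that it induces. Of 28 genes 6 rose and 7 fell. Dusp6, an ERK phosphatase, had 1393 and 1437 normalised counts with sgNlrc5, against 2134 and 2133 with sgScramble (-0.59 ± 0.046, limma adjusted p = 1e-08), and Etv5, a factor induced by ERK, had 639 and 651 with sgNlrc5, against 1016 and 1116 with sgScramble (-0.72 ± 0.066). Dusp4, a related phosphatase, had 4854 and 4946 with sgNlrc5, against 3053 and 3178 with sgScramble (0.65 ± 0.037), the other way. Spry2 and Spry4 did not pass (-0.18 ± 0.13 and -0.33 ± 0.14). Among immediate early genes 8 of 23 rose and 6 fell (4 and 8 with equal sums), with Nr4a2 at -1.28 ± 0.17, Fosl2 at -0.79 ± 0.098 and Fos overlapping between groups (0.10 ± 0.18).

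Of 23 receptor tyrosine kinase genes 8 fell and 4 rose. Met, the hepatocyte growth factor receptor and a reported MITF target, had 1452 and 1469.7 normalised counts with sgNlrc5, against 912 and 921 with sgScramble (0.67 ± 0.053), and Fgfr2 had 28.1 and 53.3 with sgNlrc5, against 137 and 119.9 with sgScramble (-1.70 ± 0.26). Growth factor genes rose in 6 of 12 and fell in 2, and Kitl, the ligand of KIT, fell (-0.86 ± 0.20). Of 32 guidance genes 9 fell and 5 rose (median -0.17). The ephrin gene Efnb1 had 197 and 184 with sgNlrc5, against 621 and 595 with sgScramble (-1.67 ± 0.098), Sema3g had 147 and 120.1 with sgNlrc5, against 500.4 and 471 with sgScramble (-1.86 ± 0.12), and Nrp2, a semaphorin and VEGF receptor named after its values were seen, had 2009 and 2067 with sgNlrc5, against 1159 and 1265 with sgScramble (0.75 ± 0.052). In the WNT pathway 8 of 23 rose and 5 fell, with its target Axin2 overlapping between groups (0.24 ± 0.26), and in the Notch pathway 1 of 20 rose and 5 fell, with its target Hes1 at -0.47 ± 0.21 (limma adjusted p = 0.088). Some calls ended with no intensity trend for Fgfr2, and without sgScramble replicate 1 for Kitl.

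Of 18 genes of DNA methylation 4 rose and 3 fell, 38.9% called against 34.2% over all genes. Their values ran from -1.07 to 0.70. The largest changes were the falls of Gadd45a (-1.07 ± 0.20) and Gadd45b (-0.92 ± 0.15). Whether these calls held under the alternatives is not given here. The called members of this list named next are rises. Dnmt1, the maintenance methyltransferase, had 5112 and 5246 normalised counts with sgNlrc5, against 4325 and 4382 with sgScramble (0.25 ± 0.034). Tet1 and Tet2, which oxidise methylcytosine, had 487 and 464 with sgNlrc5, against 324 and 322 with sgScramble (0.56 ± 0.090) and 179.9 and 196 with sgNlrc5, against 122 and 107 with sgScramble (0.70 ± 0.15), and Tet3 overlapped between the groups (-0.09 ± 0.063). Histone modifier genes rose in 10 of 41 and fell in 6 (7 and 9 with equal sums), near the shares over all genes, with Hdac9 lowest (-2.34 ± 0.35). Of 11 imprinted genes 4 rose and 4 fell. Peg13, a paternally expressed noncoding RNA, had 15.7 and 17.4 with sgNlrc5, against 326 and 357 with sgScramble (-4.28 ± 0.20), and Peg10, a retrotransposon-derived gene, 3034 and 2866 with sgNlrc5, against 5709 and 5821 with sgScramble (-0.97 ± 0.037). Plagl1 and Gnas, named after their values were seen, rose by 0.65 and 0.55. Among the calls above, some ended with no intensity trend for Dnmt1, and without sgNlrc5 replicate 1, without sgScramble replicate 1 and without sgScramble replicate 2 for Gnas.

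Outside the lists, the largest rises at readable levels included Hs3st1, a heparan sulfate sulfotransferase gene, with 664 and 683 normalised counts with sgNlrc5, against 115 and 125 with sgScramble (2.48 ± 0.11, limma adjusted p = 2.8e-12). Also higher was Glrb, the beta subunit gene of the glycine receptor, with 770.1 and 718 with sgNlrc5, against 139.7 and 133 with sgScramble (2.44 ± 0.10). Both were apart by several-fold, as were the G protein subunit gene Gnb4 (1.92), Smtnl2 (2.26), Cited1, a coactivator expressed in pigment cells (1.64), the glutathione-degrading enzyme gene Ggt1 (2.29) and Sigirr, an inhibitory relative of the interleukin 1 receptor (1.85). The call for Ggt1 ended with no intensity trend.

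The largest falls outside the lists included Rhox5, an X-linked homeobox gene of the germ line, with 155 and 144 normalised counts with sgNlrc5, against 2151 and 2194 with sgScramble (-3.85 ± 0.076, limma adjusted p = 3.4e-17). Xlr3c, of another X-linked family with near-identical copies, had 15.7 and 19.4 with sgNlrc5, against 414 and 410.0 with sgScramble (-4.48 ± 0.20), and Prkg2, a cGMP-dependent protein kinase gene, 101 and 87.2 with sgNlrc5, against 1255 and 1228 with sgScramble (-3.71 ± 0.10). Genes named outside the lists had to average at least 10 normalised counts in their lower group. Genes that fell below that level could thus not appear here. Further falls were those of the RAC exchange factor gene Prex1 (-3.73), the channel gene Pkd2l1 (-3.69), the acyl-CoA synthetase gene Acsbg1 (-3.21), the adaptor gene Fyb (-3.10), Nnmt, which methylates nicotinamide (-2.83), the retinol and alcohol dehydrogenase gene Adh7 (-2.73) and Apol9b, reported as interferon-induced (-2.81).

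Some markers of other cell types were measured, and those of melanoma were all present. Of 14 T and NK cell markers and 10 keratinocyte and erythroid markers 0 were among the listed genes, and of 14 macrophage and dendritic cell markers 2 were, without Ptprc, Csf1r or Adgre1. Lyz2 had 11.2 and 8.72 with sgNlrc5, against 53.6 and 48.5 with sgScramble (-2.25 ± 0.35) and fell, and Cd68, a lysosomal protein gene, had 1023 and 1069 with sgNlrc5, against 700.3 and 760.0 with sgScramble (0.52 ± 0.064) and rose. All 8 melanoma markers were kept and 6 of them rose, with summed normalised counts of 204751 and 205724 with sgNlrc5, against 150689 and 148836 with sgScramble. Of 10 fibroblast markers 4 were kept (Pdgfra, Col1a1, Col1a2 and Postn), without Dcn, Lum or Thy1, and their sums were 571 and 605.5 with sgNlrc5, against 736 and 776 with sgScramble. Of 9 endothelial markers 2 were kept, without Pecam1, Cdh5 or Kdr, and Vwf, one of them, had 1295 and 1268 with sgNlrc5, against 507 and 554 with sgScramble (1.27 ± 0.065) and rose. The part of such cells in the results was not tested.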

How the data were processed

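RNA-seq of cultured B16F10-TDMa cells was analysed, with 2 libraries for each guide. Libraries were made with a directional kit, per the labels' protocols. STAR 2.7.10a, DESeq2 1.36.0, FastQC 0.12.0 and the build GRCm39 appear in the submitters' processing notes without the use of each. Whether counting used strand is not stated in the sources used here. The authors deposited log2 values, log2(normalised count + 1), scaled within the table of this culture alone. Back-transformed values were whole multiples of 1 step per library (tolerance 0.1), and 100% of the low values checked were whole, from which reads per library were recovered. These ran from 12183889 to 14159573, and the intervals and floors given for low genes cover counting error only.

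Genes whose normalised count averaged at least 10 were tested on the log2 scale with limma 3.58.1 in R 4.3.3 (2-sided, intensity trend, Benjamini-Hochberg adjustment over all 12138 genes, threshold 0.05). SDs come from 2 libraries per guide. SEs and p-values use variances that limma moderated towards a trend over all genes kept, so an SE is not the replicate spread of that gene alone. Because the deposited unit is log2, the planned count tests were replaced by limma voom on the recovered reads, an alternative chosen after seeing the data. Replicates differed by more than sampling noise (chi-square per degree of freedom of 2.10 with sgNlrc5 and 2.14 with sgScramble), so none was merged. Other alternatives changed the trend, filter, pseudocount (0.5 or 5 in place of 1), scaling, block and libraries used.

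The members and lists were chosen with earlier results of these data known. Genes named are Nlrc5, fixed members of each list, up to 3 called members per list with the largest change, and up to 15 genes per direction outside the lists. Those outside the lists were called genes whose groups did not overlap. Their mean normalised count was at least 50 in the higher group and at least 10 in the lower. That rule gave 417 genes, and 40 more were chosen after their values were seen, as said where they appear. The rises given for the invasive-state list were not added to these counts. Of kept genes 9235 had a promoter in the RefSeq table of GRCm38.p6, whose coordinates are used for those sequences only. The script was tested on simulated data. Results for a few genes are not reported here.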

Additional observations from a re-analysis of the deposited data

How the results depend on the processing

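Most counts depended on the trend and on the sgScramble libraries. Without the intensity trend 1581 genes passed, 722 higher and 859 lower. Leaving out 1 library at a time gave 2512 to 3335 genes in all, 1320 to 1651 higher and 1192 to 1684 lower, with the lowest counts without sgScramble replicate 1. At a mean normalised count of at least 50, changes over 2-fold numbered 272, of which 87 were higher and 185 lower. Limma voom on the recovered reads called 4256 genes, and counts under other filters, pseudocounts and scalings stayed within 1.5 times of those reported. With equal sums the share of calls that were higher was 38.8%, against 50.5%.

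Of 457 named genes, 381 were called. Calls were lost by 147 of these without the trend, by 82 under at least 1 left-out library and by 13 with equal sums. With quantile normalisation 23 lost them, not counting Gapdh and Rps3, which lost theirs as well. Under the other alternatives run 0 did. Under quantile normalisation Gapdh stood at 0.0 (adjusted p = 1), Rps3 at -0.0106 (adjusted p = 0.67) and Ncl at -0.0763 (limma adjusted p = 0.023), and the cause was not tested. The median of a list changed sign in 14 lists with equal sums and in 8 with quantile normalisation, all lists with a median near 0. It also did so in 4 to 7 lists with 1 library left out. Among those, G1 control went from 0.094 to -0.005 without sgNlrc5 replicate 1. Invasive-state genes went from 0.076 to -0.055 without sgNlrc5 replicate 2. At a mean normalised count of at least 50 the integrin median went from -0.10 to 0.021.

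Deviations of same-numbered libraries correlated at -0.015 over all genes kept. That value cannot decide whether the replicate numbers pair the libraries, because it averages over genes and the labels do not describe the cultures. Of 80 cytosolic ribosomal protein genes, replicate 1 lay above replicate 2 in 65 with sgNlrc5 and in 64 with sgScramble. Lists also differed between the guides, as in glycolysis, with 19 and 4 of 23. With the replicate number as a block 4433 genes were called, 2256 higher and 2177 lower. The planned count tests, edgeR and DESeq2, were not run because the deposited values are log2, and medians per chromosome were not run because the annotation at hand is of another build. With 2 libraries per guide, the SE of genes under 100 normalised counts limits which changes can be detected.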
